A study of Homo sapiens with 2 samples.

Results

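The genes described here are 10 receptor tyrosine kinases for growth factors, EGFR, ERBB2, ERBB3, MET, IGF1R, INSR, FGFR1, FGFR3, FGFR4 and AXL. They were taken by gene symbol from a table of 58735 genes, in which each of the 10 symbols was found once. RNA sequencing after poly(A) selection had been done on A2780 cells, an established human ovarian cancer line. There were 2 libraries, 1 titled shControl, with the genotype WT in the labels and an empty vector in the design text, and 1 titled shJAM3, from cells with a stable knockdown of JAM3, a junctional adhesion molecule. The design text calls the knockdown reagent an siRNA whereas the titles use sh, and the sources used here do not say whether each line is a clone or a pool. The series title sets JAM3 in the context of the PI3K/AKT pathway, of which these receptors are known upstream activators.

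Receptor tyrosine kinases span the cell membrane, bind a growth factor outside and phosphorylate tyrosines inside, mostly after pairing with another receptor. Adaptor proteins that bind these phosphotyrosines pass the signal to the RAS/ERK and PI3K/AKT pathways. In epithelial ovarian cancers EGFR, ERBB2, MET, IGF1R and AXL have been studied as drug targets. The 10 genes fall into 5 families, the ERBB receptors (EGFR, ERBB2, ERBB3), the insulin receptor family (IGF1R, INSR), the FGF receptors (FGFR1, FGFR3, FGFR4), MET, the receptor of hepatocyte growth factor, and AXL, a receptor of the TAM family.

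What the families share in sequence is most visible in the kinase core. The stretches below run from the catalytic loop to the metal-binding motif in the coding sequence of the longest open reading frame in GENCODE 29 (GRCh38), 69 bases each, for 9 of the 10 genes. FGFR1 is not shown. The first codon in capitals is that of the catalytic aspartate, which ERBB3 replaces with asparagine, and the second is that of the metal-binding aspartate. ERBB3 is known for its weak kinase activity. It was also the member with the lowest level in both libraries, and a relation between its sequence and its level was not tested.
EGFR: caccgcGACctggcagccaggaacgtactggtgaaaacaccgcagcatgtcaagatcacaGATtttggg
ERBB2: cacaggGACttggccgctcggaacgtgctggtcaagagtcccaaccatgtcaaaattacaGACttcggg
ERBB3: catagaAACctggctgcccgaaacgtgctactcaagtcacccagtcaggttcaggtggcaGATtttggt
MET: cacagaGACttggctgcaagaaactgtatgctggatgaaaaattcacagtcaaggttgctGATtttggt
IGF1R: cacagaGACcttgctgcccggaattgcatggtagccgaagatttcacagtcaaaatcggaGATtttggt
INSR: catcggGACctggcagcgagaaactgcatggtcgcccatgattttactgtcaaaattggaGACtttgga
FGFR3: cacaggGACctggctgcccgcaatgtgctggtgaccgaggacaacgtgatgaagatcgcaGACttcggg
FGFR4: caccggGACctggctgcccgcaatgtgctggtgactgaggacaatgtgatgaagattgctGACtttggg
AXL: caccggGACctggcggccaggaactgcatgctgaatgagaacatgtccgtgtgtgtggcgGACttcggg

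In GRCh38 the EGFR stretch lies in exon 21 at chr7:55191752-55191820 on the plus strand. The ERBB2 stretch is in exon 21 at chr17:39725082-39725150 and the ERBB3 stretch in exon 21 at chr12:56097818-56097886, both on the plus strand. The FGFR3 stretch lies in exon 14 at chr4:1806057-1806125 and the FGFR4 stretch in exon 14 at chr5:177096063-177096131, both on the plus strand. In the other families an intron falls inside the stretch. MET has it across exons 18 and 19 (chr7:116782069-116783343, plus strand), IGF1R across exons 18 and 19 (chr15:98939300-98942930, plus strand), INSR across exons 19 and 20 (chr19:7120742-7122674, minus strand) and AXL across exons 17 and 18 (chr19:41253680-41256491, plus strand). Alike as they are, the coding sequences of the 45 pairs of members shared no identical run longer than 31 bases, between FGFR3 and FGFR4, and the median longest run was 14 bases.

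Depth was 15570262 gene-assigned fragments for shControl and 16455079 for shJAM3. As each group is 1 library, the conditions could not be tested against replicate spread, and every value below compares these libraries only. Bracketed 95% intervals, from the fragments behind each value, cover counting error only and are too narrow where PCR made copies. JAM3 itself was at 18 fragments (0.215 FPKM, fragments per kilobase of exon, scaled to library size) in shControl and 14 (0.154 FPKM) in shJAM3. It was thus scarce in shControl already, the 12315th highest of 19934 protein-coding genes. The interval of its ratio (0.330 to 1.52) includes 1, so the knockdown cannot be checked at this level and depth. NCAPD3 (27.5 and 36.0 FPKM), on the opposite strand, shares 8.53% of the JAM3 exon bases. Without strand information fragments from there could come from either gene. Of 12 ovarian epithelial markers 6 had a mean of at least 1 FPKM, among them FOLR1 and KRT8, while PAX8 (1.12 and 0.527 FPKM), WT1 (1 fragment and 0), EPCAM and CDH1 were below it. The summed level of 6 leukocyte markers was 2.78 FPKM in shControl and 1.36 in shJAM3, mostly from CD14 (2.28 and 0.763 FPKM), with PTPRC and LYZ at 0 in both. The summed level of 5 endothelial markers was 0.756 and 0.512 FPKM. That of 6 fibroblast markers was 17.4 and 14.4 FPKM, mostly from COL1A1 (13.5 and 11.3 FPKM) and PDGFRB (3.79 and 2.99 FPKM), with COL1A2 at 0 in both. The part of these cell markers in the results was not tested.

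All 10 receptors were expressed, over a wide range of levels. EGFR, FGFR4, IGF1R and AXL were the 4 most abundant and together made up 78.9% of the summed FPKM of the 10 genes in shControl and 78.1% in shJAM3. FGFR3 stood in between, and MET, FGFR1, INSR, ERBB2 and ERBB3 each had a mean below 10 FPKM. The sum over the 10 genes was 216 FPKM in shControl against 179.7 in shJAM3 (ratio 0.830). Of the 58 receptor tyrosine kinases listed, 23 had a mean of at least 1 FPKM, against 10499 of 19934 protein-coding genes. The 10 genes took 41.7% of the summed FPKM of all 58 in shControl and 47.9% in shJAM3. The sum of all 58 was 519 FPKM in shControl and 376 in shJAM3, a lower ratio (0.723) than that of the 10.

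**Figure D1:**
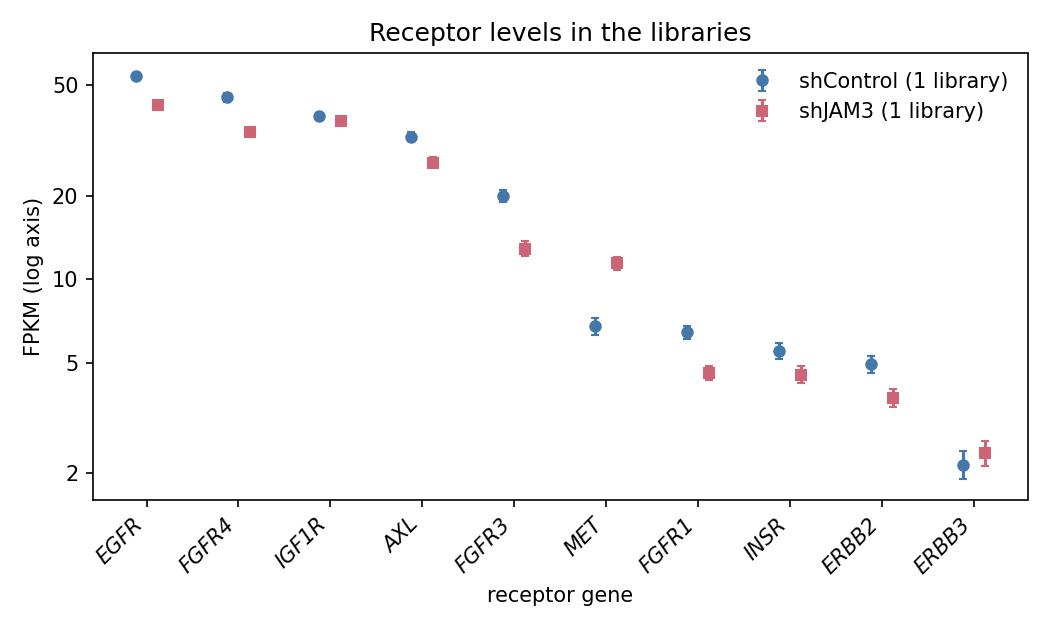
Level of each receptor gene in FPKM, on a log axis, in the shControl library (blue circles) and the shJAM3 library (red squares), ordered by the shControl level. Bars are 95% Poisson intervals of the fragment number and cover counting error only. MET is the only gene whose shJAM3 value lies above its shControl value with intervals that do not overlap.

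The order of the levels was nearly the same in both libraries. It ran EGFR, FGFR4, IGF1R, AXL, FGFR3, MET, FGFR1, INSR, ERBB2 and ERBB3 in shControl. In shJAM3, IGF1R and FGFR4 changed places and the other 8 genes kept theirs. In each library 8 of the 9 neighbours in this order differed beyond counting error. MET and FGFR1 were not separated in shControl (level ratio 1.05, 0.958 to 1.15), and neither were FGFR1 and INSR in shJAM3 (1.01, 0.924 to 1.11). FPKM divide by all annotated exon bases of a gene, 13842 for FGFR1 and 7039 for MET, whichever of its transcripts are present. The order across genes thus also depends on these lengths, and their part in it was not tested.

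Of the 10 receptors 8 were lower in the shJAM3 library and 2 were higher, where 50.6% of 10499 measured protein-coding genes were lower. A gene counted as measured when its mean of the libraries reached 1 FPKM. The counting interval lay below 1 for the same 8 receptors and above 1 for MET, against 36.8% and 34.5% of measured protein-coding genes. None passed a log2 ratio of 1 in either direction (the 2-fold rule), a size that 1.80% of measured protein-coding genes passed, and 1 in each direction passed 0.5, against 12.4% (lower) and 8.35% (higher). On the log2(FPKM + 1) scale, which understates the difference of low genes, the median of the 10 was -0.31, against -0.01 for all measured protein-coding genes, whose middle 50% lay between -0.29 and 0.25. In a bulk library fewer cells that express a gene and less of its RNA per cell cannot be told apart.

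**Figure D2:**
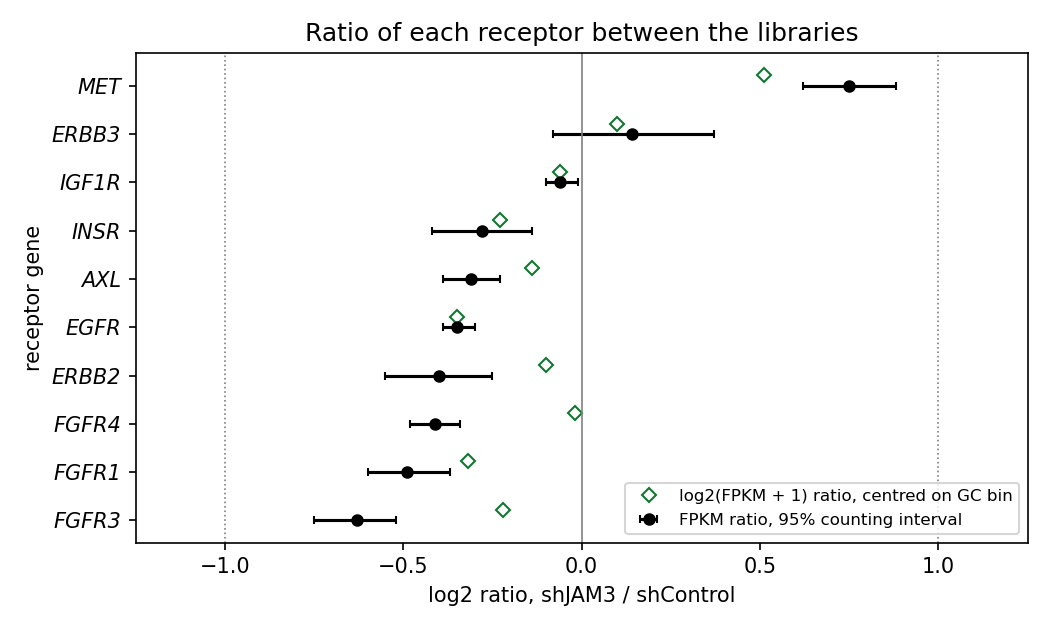
Log2 ratio of shJAM3 to shControl for each receptor. Black points are ratios of FPKM with their 95% counting intervals, open diamonds are log2(FPKM + 1) ratios after subtraction of the median of genes of like GC content, and dotted lines mark a 2-fold difference. MET has the only interval wholly to the right of 0, FGFR3 lies farthest to the left, and FGFR4 moves to near 0 after the GC step.

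Ratios between these libraries went with the base composition of the transcripts. Across measured protein-coding genes ordered by GC content into 10 equal groups, the median log2 ratio went from 0.24 at a median GC of 38.6% to -0.45 at 64.4%. The GC content of 9 of the 10 receptors was above the median of measured protein-coding genes, 49.9%. MET, at 43.9%, was the exception, and FGFR4 (63.6%) and FGFR3 (62.9%) had the highest values. After each gene was centred on the median of its GC bin (20 bins), 8 of the 10 were still below 0, against 49.9% of measured protein-coding genes, but their median was -0.12. The part of base composition in the ratio of any single receptor was not tested, and the centred value is given beside each below.

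**Figure D3:**
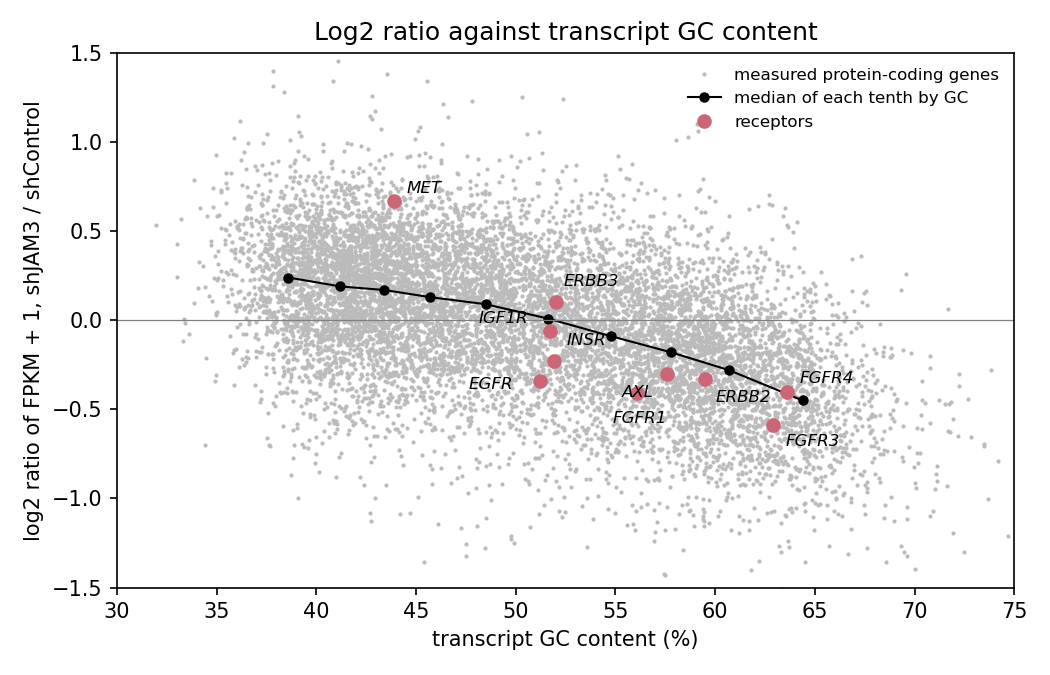
Log2(FPKM + 1) ratio of shJAM3 to shControl against transcript GC content, for 10468 measured protein-coding genes (grey; 28 more lie outside the axes), the median of each of 10 equal GC groups (black) and the 10 receptors (red). The medians fall from left to right, FGFR4 lies close to them, and MET lies above and EGFR, FGFR1 and INSR below the middle 50% of genes in their GC bin.

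MET encodes the receptor of hepatocyte growth factor, which drives scattering and migration of epithelial cells. It had 731 fragments in shControl and 1335 in shJAM3, or 6.76 and 11.4 FPKM. It was the only receptor higher in shJAM3 beyond counting error, with a ratio of 1.68 (1.54 to 1.84). Its log2(FPKM + 1) ratio of 0.67 was above that of 97.0% of measured protein-coding genes, and it was 0.51 after GC centring. The ratio of MET divided by that of another receptor lay above 1 beyond counting error in all 9 pairs, from 1.52 against ERBB3 to 2.61 (2.31 to 2.94) against FGFR3. The gene (ENSG00000105976) lies on the plus strand of chromosome 7, at 116672390 to 116798386, and no other annotated exon overlaps its exons.

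EGFR, the receptor of epidermal growth factor and its relatives, was the most abundant of the 10. It was at 54.2 FPKM (53.1 to 55.2) in shControl and 42.6 (41.8 to 43.5) in shJAM3, the 807th and the 1006th highest of 19934 protein-coding genes. Its ratio was 0.787 (0.765 to 0.810). With a GC content of 51.2%, near the median of all genes, EGFR changed little on centring, from a log2(FPKM + 1) ratio of -0.34 to -0.35, the lowest centred value of the 10. Its antisense gene EGFR-AS1, at 0.0928 and 0 FPKM, covers 1.49% of the EGFR exon bases. EGFR (ENSG00000146648) is on the plus strand of chromosome 7, at 55019021 to 55211628.

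The other ERBB receptors were far less abundant. ERBB2, which has no known ligand and serves as the preferred partner of the other ERBB receptors, had 4.93 FPKM in shControl against 3.73 in shJAM3. Its ratio of 0.757 (0.681 to 0.842) did not differ from that of EGFR beyond counting error (ratio of ratios, EGFR over ERBB2, 1.04, 0.933 to 1.16). GC centring brought its log2(FPKM + 1) ratio from -0.33 to -0.10. MIEN1 (9.40 and 11.1 FPKM) and PGAP3 (0.976 and 1.09 FPKM), on the opposite strand, share 5.53% and 1.88% of the ERBB2 exon bases, and without strand information fragments from there could come from either gene. ERBB2 (ENSG00000141736) lies on chromosome 17 at 39687914 to 39730426.

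ERBB3, the neuregulin receptor that recruits PI3K directly, had the lowest level of the 10. It had 297 fragments in shControl and 356 in shJAM3, 2.14 and 2.36 FPKM. The interval of its ratio, 1.10 (0.944 to 1.29), included 1, so a difference was not detectable at this depth. Its ratio still stood above that of ERBB2 beyond counting error (ERBB2 over ERBB3, 0.686, 0.569 to 0.826). Its GC-centred value was 0.10, the same as before centring. ERBB3 (ENSG00000065361) lies on chromosome 12 at 56076799 to 56103505.

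The FGF receptors included the lowest ratio of the 10 and were lower as a family, from a sum of 71.5 FPKM in shControl to 51.5 in shJAM3. FGFR3 had 1483 fragments in shControl and 1039 in shJAM3, 19.9 and 12.8 FPKM, with a ratio of 0.645 (0.596 to 0.699). FGFR4, the second most abundant of the 10 in shControl, had 45.2 and 34.0 FPKM and thus a ratio of 0.753 (0.716 to 0.793). FGFR1 had 6.44 and 4.60 FPKM, giving a ratio of 0.713 (0.658 to 0.773). Among the FGF receptors, FGFR3 was lower than FGFR4 beyond counting error (ratio of ratios 0.857, 0.780 to 0.941), while neither differed so from FGFR1 (FGFR1 over FGFR3 1.11, 0.988 to 1.24, and FGFR1 over FGFR4 0.947, 0.861 to 1.04).

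After GC centring the order among the FGF receptors was another. FGFR1 went from a log2(FPKM + 1) ratio of -0.41 to -0.32, FGFR3 from -0.59 to -0.22 and FGFR4 from -0.40 to -0.02. Thus FGFR4, a GC-rich transcript, was near the median of genes of its GC content, and FGFR1 was then the lowest of the family. FGFR3 (ENSG00000068078) lies on chromosome 4 at 1793293 to 1808872, FGFR4 (ENSG00000160867) on chromosome 5 at 177086886 to 177098144, and FGFR1 (ENSG00000077782) on chromosome 8 at 38400215 to 38468834. Other exons overlap 2.12% of the FGFR1 exon bases and none of those of FGFR3 and FGFR4. The fourth receptor of the family with a kinase domain, FGFR2, had 2 fragments in shControl and 0 in shJAM3.

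The insulin family held the receptor that differed least. IGF1R, which binds IGF1 and IGF2 and signals to PI3K through the IRS proteins, had 8316 fragments in shControl and 8670 in shJAM3. At 38.8 and 37.3 FPKM its ratio was 0.960 (0.932 to 0.990), below 1 beyond counting error but by a small amount. INSR, the insulin receptor, had 5.50 and 4.53 FPKM, giving a ratio of 0.824 (0.748 to 0.908). The ratio of IGF1R was above that of INSR beyond counting error (1.17, 1.05 to 1.29). Their transcripts have nearly the same GC content (51.7% and 51.9%), and their log2(FPKM + 1) ratios, -0.06 and -0.23, were unchanged to 2 decimals by the centring. IGF1R (ENSG00000140443) lies on chromosome 15 at 98648539 to 98964530 and INSR (ENSG00000171105) on chromosome 19 at 7112255 to 7294034, on the minus strand.

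AXL binds GAS6 and is known for its part in invasion and drug resistance. It was at 32.6 FPKM (31.4 to 33.9) in shControl and 26.3 (25.3 to 27.5) in shJAM3. Its ratio of 0.808 (0.764 to 0.856) did not differ beyond counting error from that of EGFR (EGFR over AXL 0.974, 0.914 to 1.04), and its log2(FPKM + 1) ratio went from -0.30 to -0.14 after GC centring. TYRO3, of the same family, had 14.5 and 10.8 FPKM, giving a ratio of 0.746 (0.702 to 0.792), and MERTK had 2 fragments in shControl and 0 in shJAM3. AXL (ENSG00000167601) lies on chromosome 19 at 41219203 to 41261766, and an antisense gene overlaps 1.30% of its exon bases.

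Of the 45 pairs among the 10 receptors, 31 had ratios that differed beyond counting error, all 9 pairs with MET among them. The share among pairs of other measured genes was not computed. For single genes the counting interval excluded 1 in 36.8% (lower) and 34.5% (higher) of measured protein-coding genes. The count of pairs thus cannot be read as a trait of the receptors. The 14 pairs that were not told apart lay among EGFR, ERBB2, INSR, FGFR1, FGFR4 and AXL, whose ratios ran from 0.713 to 0.824, apart from ERBB3 with IGF1R and FGFR1 with FGFR3. Receptors of 1 family thus did not always have like ratios in these libraries, as ERBB3 against EGFR and ERBB2 and IGF1R against INSR show. The ratios of these pairs were not centred on GC content. The centred log2(FPKM + 1) ratios were -0.35 for EGFR, -0.10 for ERBB2, 0.10 for ERBB3, -0.06 for IGF1R and -0.23 for INSR.

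Most of the ligands of these receptors were scarce. Of 35 listed, 7 were measured and 10 had no fragment in either library. Of 19934 protein-coding genes 10499 were measured, and those without a fragment in either library were not counted. HGF, the ligand of MET, had none, which allows up to 0.0199 FPKM in shControl and 0.0183 in shJAM3 (3 fragments, for counting error only). INS also had none, and IGF1 had 1 and 2 fragments and IGF2 1 and 0. All 7 measured ligands had lower values in shJAM3, with a median log2(FPKM + 1) ratio of -0.41 and of -0.55 after GC centring, and 6 of them were lower beyond counting error. Of measured protein-coding genes 50.6% were lower and 36.8% lower beyond counting error.

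The measured ligands were those of EGFR, ERBB, FGF and TAM receptors. Among the EGFR ligands, AREG was at 8.26 and 7.86 FPKM with a ratio of 0.952 (0.783 to 1.16), an interval that includes 1, and HBEGF at 2.52 and 1.33 FPKM with a ratio of 0.527 (0.385 to 0.718). The neuregulin NRG2, a ligand of ERBB3, was at 1.28 and 0.743 FPKM, on 89 and 56 fragments. Among the FGFs, FGF2 was the most abundant listed ligand at 16.9 and 10.1 FPKM (ratio 0.596, 0.553 to 0.643). FGF21, an endocrine FGF, had 101 and 38 fragments and a ratio of 0.347 (0.232 to 0.508), the only ligand past the 2-fold rule, with a log2(FPKM + 1) ratio of -1.13. Of measured protein-coding genes 1.80% passed this rule. After GC centring FGF21 was at -0.98, no longer past the rule. KLB, the co-receptor of FGF21, had 2 fragments in each library. The AXL ligand GAS6 was at 10.2 and 7.46 FPKM (ratio 0.728, 0.661 to 0.802), and PROS1, a ligand of TYRO3 and MERTK, at 8.65 and 6.74 FPKM (ratio 0.780, 0.699 to 0.869). GC centring took the log2(FPKM + 1) ratio of GAS6 from -0.41 to -0.10 and that of NRG2 from -0.39 to -0.01. The centred values of AREG, HBEGF, FGF2 and PROS1 were -0.26, -0.67, -0.92 and -0.55. KLB lies outside the rule for naming genes and was chosen after its values were seen.

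**Figure D4:**
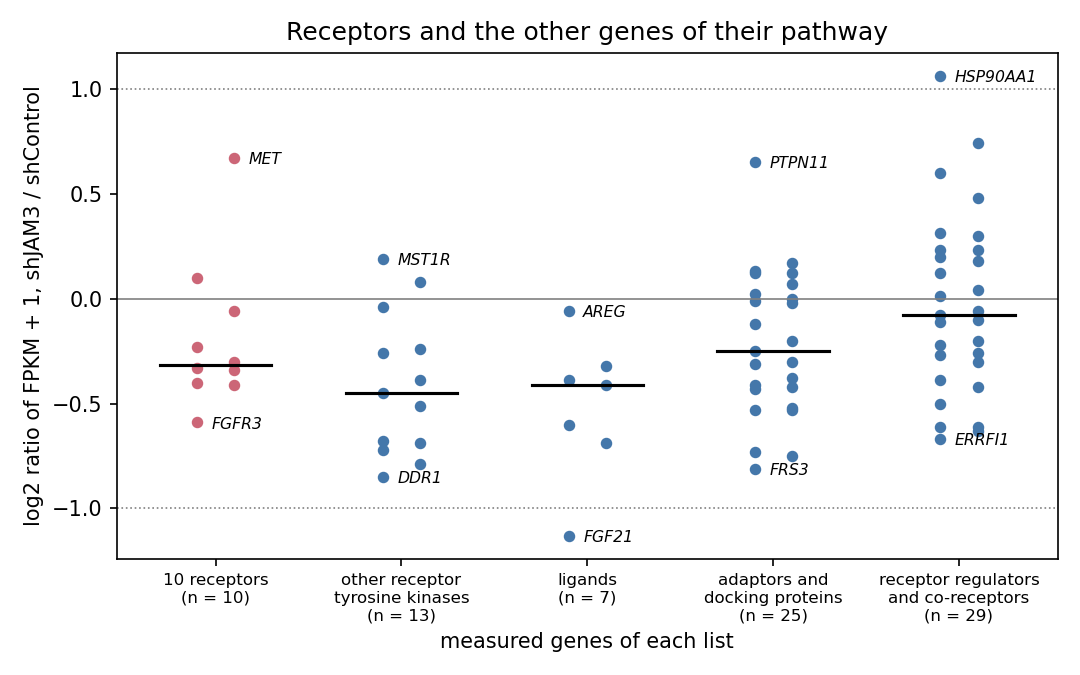
Log2(FPKM + 1) ratio of shJAM3 to shControl for the 10 receptors (red) and the measured genes of 4 lists (blue), with the median of each as a bar and the highest and lowest gene named. Dotted lines mark a 2-fold difference, which FGF21 (-1.13) and HSP90AA1 (1.06) pass, though not after GC centring (-0.98 and 0.91). The medians are -0.31 for the 10 receptors, -0.45 for other receptor tyrosine kinases, -0.41 for ligands, -0.25 for adaptors and -0.08 for regulators.

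Of 48 other receptor tyrosine kinases 13 were measured, against 10499 of 19934 protein-coding genes. Of these 13, 11 were lower in shJAM3, 10 of them beyond counting error (50.6% and 36.8% of measured protein-coding genes). Their median log2(FPKM + 1) ratio was -0.45. After GC centring 9 of the 13 were below 0, against 49.9% of measured protein-coding genes, and the median was -0.30. The ephrin receptor EPHA2 was the most abundant of all 58, at 120.1 and 74.3 FPKM (ratio 0.619, 0.598 to 0.642). The collagen receptor DDR1 had the lowest ratio of the measured ones (0.535, 0.504 to 0.568), followed by EPHB4 (0.572) and the WNT5A receptor ROR2 (0.589). GC centring changed this order, with log2(FPKM + 1) ratios of -0.70 for LMTK2, the lowest, -0.57 for ROR2, -0.54 for DDR1 and -0.47 for EPHB4. MST1R, the closest relative of MET, was at 11.2 and 12.9 FPKM, and its ratio of 1.16 (1.06 to 1.26) was the only one of the 13 above 1 beyond counting error. ERBB4 had 15 and 6 fragments and INSRR 7 and 3, so the ERBB and insulin families had no further measured receptor.

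Of the adaptors and docking proteins that bind the activated receptors, 25 of 32 were measured, against 10499 of 19934 protein-coding genes. None of the 25 passed the 2-fold rule on the log2(FPKM + 1) scale, which 1.80% of measured protein-coding genes passed. By FPKM ratio alone FRS3 (0.430) and SHC2 (0.342) differed by more than 2-fold. Of the 25 measured, 18 were lower and 7 higher, 15 and 2 of them by more than counting error (36.8% and 34.5% of measured protein-coding genes, with 50.6% lower). The median was -0.25 (-0.22 after GC centring). PTPN11, the phosphatase SHP2 that links receptors to RAS, was the highest, at 19.7 and 31.3 FPKM (ratio 1.59, 1.51 to 1.68). FRS3, a docking protein of FGF receptors, was lowest on the log2(FPKM + 1) scale (-0.81), at 3.12 and 1.34 FPKM (ratio 0.430, 0.315 to 0.583). The adaptor SHC2 had the lowest FPKM ratio (0.342, 0.226 to 0.506), at 1.53 and 0.523 FPKM, and -0.73 on the log2(FPKM + 1) scale. The insulin receptor substrate IRS2 was the most abundant, at 66.6 and 49.3 FPKM (ratio 0.740, 0.716 to 0.764). CBL, a ubiquitin ligase that marks activated EGFR and MET for degradation, was at 23.8 and 16.2 FPKM (ratio 0.681, 0.650 to 0.713), and GRB7, an adaptor of ERBB2, at 7.98 and 4.35 FPKM (ratio 0.545, 0.466 to 0.637). GC centring changed the order of these genes. The centred log2(FPKM + 1) ratios were -0.63 for CBL, -0.61 for FRS3 and -0.52 for GRB7. They were -0.23 for SHC2, -0.22 for IRS2 and 0.54 for PTPN11.

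The last list held phosphatases, inhibitors, sorting factors, co-receptors, IGF-binding proteins and chaperones. Of 36 genes 29 were measured, against 10499 of 19934 protein-coding genes. Of these 29, 16 were lower and 13 higher, 14 and 11 of them by more than counting error, and the median was -0.08. The 16 lower genes of 29 lie near the background of 50.6%. Beyond counting error 36.8% of measured protein-coding genes were lower and 34.5% higher. The chaperone genes HSP90AA1 (121 and 254 FPKM, ratio 2.10, 2.05 to 2.15) and HSP90AB1 (421 and 706 FPKM, ratio 1.68, 1.65 to 1.71) had the highest ratios. After GC centring the log2(FPKM + 1) ratio of HSP90AA1 went from 1.06 to 0.91, no longer past the 2-fold rule. These genes, like PTPN11, have processed pseudogenes that can take or add fragments, so their values are uncertain. HSP90 is known to stabilise ERBB2 and other kinases. ERRFI1, an inhibitor that binds the EGFR kinase domain, was at 20.9 and 12.7 FPKM (ratio 0.609, 0.559 to 0.664), and PTPN1, a phosphatase of the insulin receptor, at 24.0 and 15.4 FPKM (ratio 0.641, 0.592 to 0.695).

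The IGF-binding proteins IGFBP4 and IGFBP6, which hold IGFs outside the cell, were abundant and lower, with ratios of 0.643 (0.619 to 0.667) and 0.646 (0.581 to 0.717). GC centring took their log2(FPKM + 1) ratios to -0.26 and -0.24, from -0.63 and -0.61. RNF41, a ubiquitin ligase known to lower ERBB3 protein, was at 14.6 and 20.8 FPKM (ratio 1.42, 1.33 to 1.52) and was also named after its values were seen. All values here are transcript levels. Receptor protein, its phosphorylation and its presence at the cell surface were not measured.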

How the data were processed

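The authors deposited 1 table of FPKM for 2 libraries, with gene lengths. The submitters' processing notes list, without roles, DESeq2 1.20.0, edgeR 3.22.5, featureCounts 1.5.0-p3 and HISAT2 2.0.5, among others. The handling of fragments that map to several genes and the strand setting are not given in the sources used here. All 58735 gene coordinates matched GENCODE 29 (GRCh38), and each gene length equalled that of all its annotated exons merged. Fragments were recovered as whole multiples of 1 step per library (100% of values above 0, tolerance 0.001), which gave 15570262 and 16455079. The deposited FPKM imply library sizes 0.987 and 1.01 times these totals, so they carry a further scaling of unstated origin. Of rows sharing a symbol the highest was kept (1566 left out).

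Ratios of FPKM carry exact conditional binomial 95% intervals, ratios of ratios carry Wald intervals on the log scale, and levels Poisson ones, all from the recovered fragments. They describe these libraries and no p-value is given. GC content was taken over all GENCODE transcripts of a gene (10496 of 10499 measured protein-coding genes and all 10 receptors). The call rule was an absolute log2(FPKM + 1) ratio of at least 1. The rule, the interval and the centring were tested on simulated data. The simulated fragments held counting error only, so the intervals were not checked against spread between libraries or PCR copies. Receptors and lists were chosen with earlier results of these data known. Genes named are the 10 receptors, and up to 6 measured genes of each list with the largest absolute log2 ratio and its most abundant gene. Also named are ligands and relatives of the receptors, genes with exons that overlap those of a named gene, JAM3 and markers. With 2 libraries a gene has 1 ratio only, so no genes of like pattern were sought. Alternatives were other pseudocounts, scalings, filters, protein-coding genes only, the interval as an added condition, and centring on GC content or gene length. Python 3.11.15 and scipy 1.17.1 were used.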

Additional observations from a re-analysis of the deposited data

How the results depend on the processing

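Of 127 recomputed values 105 stayed within counting error (for list medians within 0.12) or, for counts, within 1.5 times, and 22 moved. Some could hardly have moved, as the median log2 ratio subtracted in the centring on measured protein-coding genes was -0.01. The number that stayed is thus no measure of stability. No receptor ratio that was beyond counting error changed sign. The number of receptors lower in shJAM3 stayed at 8 under the other scalings, pseudocount, GC and length centring, and none passed the 2-fold rule under any alternative. With GC centring the log2 ratio was -0.10 for ERBB2, 0.51 for MET, -0.22 for FGFR3, -0.02 for FGFR4 and -0.14 for AXL, and the medians were -0.30 for other receptor tyrosine kinases and -0.55 for ligands. With gene length centring EGFR was at -0.29 and IGF1R at -0.00. Genes past the 2-fold rule numbered 159 higher and 257 lower of 12214 measured. They numbered 361 and 477 with a pseudocount of 0.1 FPKM, 52 and 141 at a mean of at least 5 FPKM, and 41 and 148 among protein-coding genes. With no filter on low values 254 were higher, and with at least 50 fragments 75 were. With no filter the medians were -0.04 for other receptor tyrosine kinases, -0.04 for ligands and -0.12 for adaptors. At a mean of at least 5 FPKM that of other receptor tyrosine kinases was -0.68, and with a pseudocount of 0.1 FPKM that of ligands was -0.71. The cause of these shifts was not tested, except that a filter changes which genes are counted. No paired analysis was possible because each group has 1 library, and for the same reason no library could be left out.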
